A study of Mus musculus with 7 samples.

Results

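UDP-glucuronosyltransferases (UGTs) and cytosolic sulfotransferases (SULTs) were examined as a gene group in the livers of HFD-fed WT and TET1 KO mice. The members were all genes whose symbol in the count tables began with Ugt1, Ugt2, Ugt3 or Ugt8, or with Sult1 to Sult6. The rule used names only and no measured value. It gave 49 of the 51426 genes in the tables, 22 UGT and 27 SULT genes. Of these, 28 had at least 10 counts in total over the 7 libraries and were tested, 20 UGT and 8 SULT genes, and 21 were not tested.

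UGTs sit in the membrane of the endoplasmic reticulum and transfer glucuronic acid from UDP-glucuronic acid to bilirubin, bile acids, steroids and drugs. Cytosolic SULTs transfer a sulfate group from PAPS, the activated form of sulfate, to phenols, steroids and bile alcohols. Both reactions make their substrates more soluble in water, so that transporters can move the conjugates into bile or blood, and the liver is a main site of both.

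The livers came from male mice, labelled C57BL/6J, given an HFD for 16 weeks from 8 weeks of age. The 3 WT mice carried intact TET1, and the 4 TET1 KO mice lacked TET1, an enzyme that starts the removal of DNA methylation, in the whole body. The study's methods name the KO line as B6;129S4-Tet1tm1.1Jae/J, bought as heterozygous animals, so its origin is mixed B6 and 129S4, and the study's text calls the controls littermates. The question was how liver mRNA differs between the genotypes under an HFD. Library totals lay between 15005277 and 22746138 counts, and each mouse gave 1 library. Tet1 itself had 1, 4 and 1 counts in WT replicates 1 to 3 and 2, 1, 4 and 1 counts in TET1 KO replicates 1 to 4, too few to check the genotype labels. The summed level of 5 hepatocyte markers overlapped between the groups, at 57675 to 80538 CPM in WT and 70277 to 77493 CPM in TET1 KO, where CPM is the count per 1e6 counts of the library after TMM scaling. The summed level of 5 cholangiocyte markers, by contrast, was 29.6 to 38.1 CPM in WT and 45.5 to 67.3 CPM in TET1 KO, and that of 5 endothelial markers was 118 to 123 CPM in WT and 97.6 to 111 CPM in TET1 KO. In neither list did the groups overlap, all 5 markers of each had more than 3 counts in every library, and their part in the results was not tested. Alb held most counts of the hepatocyte list and Spp1 of the cholangiocyte list, so these sums mainly follow them. Among the hepatocyte markers the log2 fold change ran from -0.47 (Cps1, adjusted p = 0.334) to 1.07 (Apoa1, adjusted p = 0.0991). Among the cholangiocyte markers it ran from 0.55 (Spp1) to 2.08 (Epcam). Krt19, Krt7 and Epcam had their highest counts in TET1 KO replicate 4, at 144, 58 and 105. The summed levels of the Kupffer cell, stellate cell and T and B cell lists overlapped between the genotypes. Of 5 markers of kidney and intestine, which also hold these enzymes, Umod and Slc34a1 had 0 counts in all 7 libraries and Vil1 had 0 to 7. Fabp2 and Lgals4 had 859 to 4607 and 314 to 1213 counts, with log2 fold changes of -0.80 (adjusted p = 0.115) and 1.17 (adjusted p = 0.0714). The summed level of these 5 was 136 to 231 CPM in WT and 125 to 169 CPM in TET1 KO, and its part in the results was not tested. In bulk liver, fewer cells of a type and less RNA per cell cannot be told apart.

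Most UGT genes lie in 2 clusters whose members arose by duplication, which matters for how their reads are counted. The Ugt2b genes lie within 1 stretch of chromosome 5, together with Ugt2a3, and each has its own exons. The windows of 250 bases before the annotated starts of 4 of them are shown because they include the called gene, Ugt2b35, and the abundant Ugt2b5 and Ugt2b36 beside the scarce Ugt2b37 (RefSeq, GRCm38.p6). Capitals mark AGGTCA, the core bound by many nuclear receptors, on either strand.
Ugt2b35, chr5:87000610-87000859, plus strand: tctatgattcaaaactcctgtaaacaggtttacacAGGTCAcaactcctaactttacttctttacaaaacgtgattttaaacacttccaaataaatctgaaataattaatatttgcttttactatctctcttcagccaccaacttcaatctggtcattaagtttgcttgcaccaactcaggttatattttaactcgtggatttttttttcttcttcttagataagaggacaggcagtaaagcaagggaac
Ugt2b5, chr5:87140341-87140590, minus strand: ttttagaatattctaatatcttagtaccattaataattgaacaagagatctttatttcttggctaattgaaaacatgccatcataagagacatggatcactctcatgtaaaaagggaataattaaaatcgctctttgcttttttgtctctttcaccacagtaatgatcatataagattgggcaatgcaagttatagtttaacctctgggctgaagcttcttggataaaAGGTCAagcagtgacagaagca
Ugt2b36, chr5:87092556-87092805, minus strand: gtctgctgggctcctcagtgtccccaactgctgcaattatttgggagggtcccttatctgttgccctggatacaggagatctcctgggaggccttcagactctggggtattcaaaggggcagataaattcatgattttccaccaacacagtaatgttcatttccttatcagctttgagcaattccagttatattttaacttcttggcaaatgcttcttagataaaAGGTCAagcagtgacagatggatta
Ugt2b37, chr5:87254789-87255038, minus strand: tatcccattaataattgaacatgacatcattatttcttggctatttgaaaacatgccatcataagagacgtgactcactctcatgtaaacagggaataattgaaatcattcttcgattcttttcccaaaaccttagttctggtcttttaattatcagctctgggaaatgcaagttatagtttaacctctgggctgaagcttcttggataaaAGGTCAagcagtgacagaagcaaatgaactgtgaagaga

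The windows of Ugt2b5 and Ugt2b37 were identical at 200 of 274 aligned positions (73.0%), although the levels of the 2 mRNAs differed widely, as described further on. Ugt2b5, Ugt2b36 and Ugt2b37 shared 1 run of 24 bases, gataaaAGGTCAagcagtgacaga, which began 28, 31 and 45 bases before their starts and was found in the windows of these 3 genes among 32851 windows in the table. In Ugt2b35 the AGGTCA began 215 bases before the start. Promoter entries were found for 25 of the 28 tested members, 27 entries in all, and AGGTCA stood in 10 of the 27 (37%) and in 14% of all windows. A match of letters is a description and no evidence of a bound site.

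The 9 Ugt1a genes form the other cluster, on chromosome 1, and are built differently. Each has a first exon of its own, and all 9 end on the same downstream exons up to position 88220002 or 88218998 of chromosome 1. In the GENCODE M1 gene models, between 48.8% and 78.3% of the exon bases of each Ugt1a gene also belonged to another gene. The windows before 3 first exons are shown because Ugt1a1 had the highest count of the cluster in the WT livers, Ugt1a9 had few counts above the lowest gene, and Ugt1a8 had the lowest count or shared it, with capitals again on AGGTCA, on either strand.
Ugt1a1, chr1:88211709-88211958, plus strand: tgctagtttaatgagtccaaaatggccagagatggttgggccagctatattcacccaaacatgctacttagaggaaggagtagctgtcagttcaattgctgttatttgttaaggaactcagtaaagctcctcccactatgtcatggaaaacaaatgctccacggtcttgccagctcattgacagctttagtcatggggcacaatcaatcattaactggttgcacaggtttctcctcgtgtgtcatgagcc
Ugt1a9, chr1:88070529-88070778, plus strand: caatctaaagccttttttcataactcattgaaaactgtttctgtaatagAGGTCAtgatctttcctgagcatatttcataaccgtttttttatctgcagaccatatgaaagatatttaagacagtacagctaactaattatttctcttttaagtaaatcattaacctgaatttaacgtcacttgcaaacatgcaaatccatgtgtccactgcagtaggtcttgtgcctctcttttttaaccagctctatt
Ugt1a8, chr1:88087578-88087827, plus strand: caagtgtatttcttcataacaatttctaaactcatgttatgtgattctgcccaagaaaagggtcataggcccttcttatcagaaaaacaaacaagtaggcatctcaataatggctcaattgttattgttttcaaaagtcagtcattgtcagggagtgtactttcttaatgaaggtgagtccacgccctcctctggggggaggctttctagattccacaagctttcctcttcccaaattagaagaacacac

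AGGTCA stood in the window of Ugt1a9 and not in those of Ugt1a1 and Ugt1a8. GCGTG, the core bound by the aryl hydrocarbon receptor, stood in 5 of the 27 entries (18.5%) and in 28.2% of all windows, and TGACNNNGC, the core of the antioxidant response element, stood in 0 of the 27 and in 10.2% of all windows, both read on either strand.

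The levels of the members outside Ugt1a spanned a wide range when set per kilobase of exon (GENCODE M1 lengths). Sult2a7, for which no length was found, and Ugt8a, near the detection limit, were left out of this order. In WT livers Ugt2b5 had the highest mean level at 345 CPM per kb, followed by Ugt2b36 at 299.5, and their ranges over the 3 mice overlapped. Sult2a8 followed at 211 and Sult1a1 at 148 CPM per kb, each apart from its neighbours in this order. Ugt2a3, Ugt3a2, Ugt2b34 and Ugt2b1 had between 79.9 and 98.4 CPM per kb, and neighbours among these 4 overlapped. Sult1e1 was the lowest of the 17 ranked genes at 0.244 CPM per kb, and Ugt2b37 was next at 0.624. In TET1 KO livers Sult2a8 had the highest mean at 336 CPM per kb, ahead of Ugt2b5 at 231 and Ugt2b36 at 211, but its range over the 4 mice, 240.2 to 413, overlapped that of Ugt2b5, 192 to 247.

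**Figure D1:**
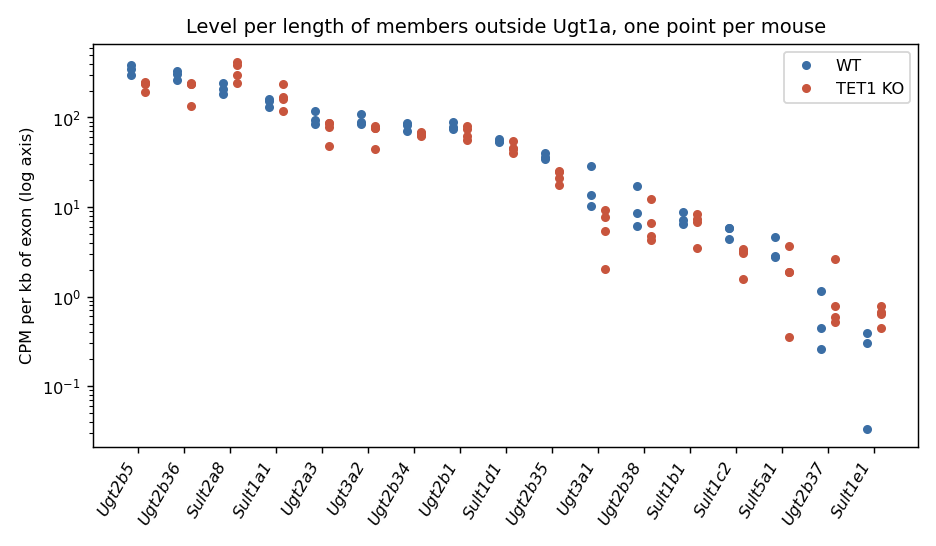
Level of 17 tested members outside Ugt1a, as CPM per kilobase of exon on a log axis, with 1 point per mouse (WT left, TET1 KO right of each tick). Genes are ordered by their WT mean, from Ugt2b5 at 345 to Sult1e1 at 0.244 CPM per kb.

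Of the 20 tested UGT genes 1 was called lower in TET1 KO livers, and of the 8 tested SULT genes 0 were called. In edgeR's quasi-likelihood test, adjusted over 18553 genes, 0 members were called higher and 1 was called lower, Ugt2b35. Over all tested genes 0.593% were called higher and 0.932% lower (1.53% in both directions), and with library sizes alone in place of TMM these shares were 0.469% and 1.33% (1.8%). DESeq2 called 1 member higher and 4 lower, against 3.42% and 3.83% of all tested genes (7.25% in both directions). The log2 fold change (TET1 KO minus WT) was below 0 in 23 of the 28 tested members and in 49% of all tested genes. Its median was -0.39 over the members and 0.01 over all tested genes. In 11 members all 4 TET1 KO livers lay below all 3 WT livers, and in 1 member they lay above. Among all tested genes 10.2% lay fully below and 9.56% fully above. An unadjusted p under 0.05 was reached by 11 members lower and 2 higher, against 12.2% and 11.7% of all tested genes. These member counts include 9 Ugt1a genes that appear to repeat each other's reads, and without them 14 of 19 were below 0, with a median of -0.29, and 7 lay fully below.

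**Figure D2:**
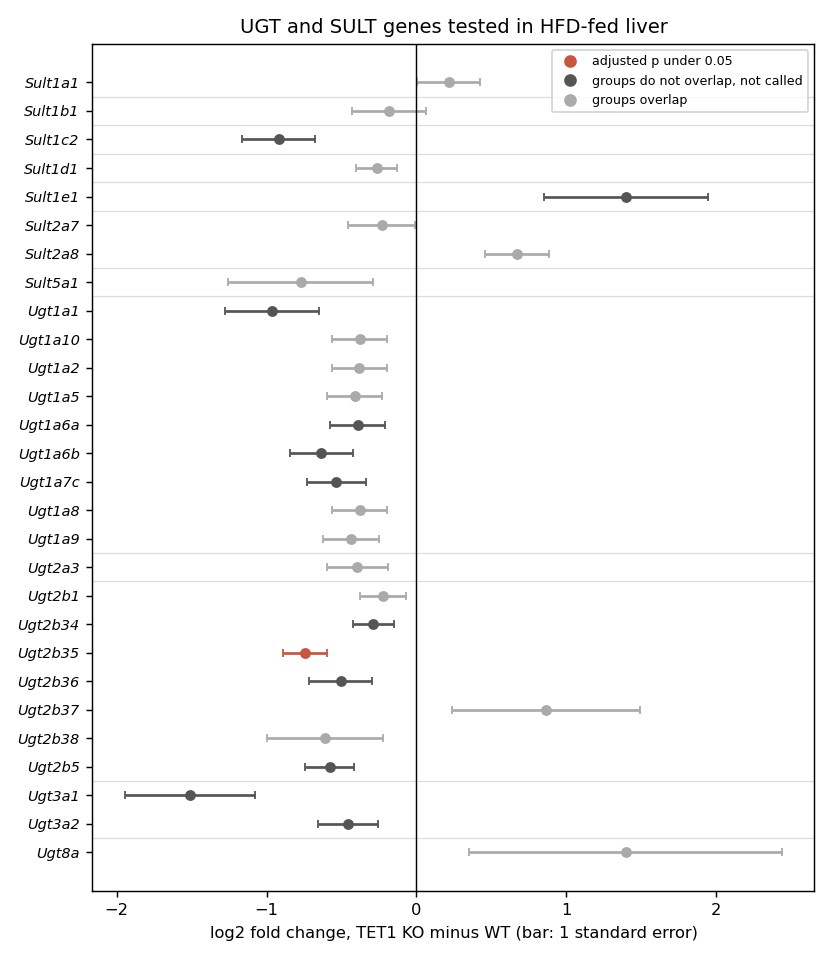
Log2 fold change (TET1 KO minus WT) of the 28 tested members with 1 standard error (SE) from edgeR's fit, grouped by subfamily. Points lie left of 0 in 23 members. Ugt2b35 is the 1 called gene, dark points mark groups that do not overlap, and the 9 Ugt1a points appear to repeat the same reads in part.

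TET1 KO replicate 1 had the lowest level of the 4 TET1 KO livers in 23 of the 28 members, and in 14 of the 19 outside Ugt1a. Without this mouse 22 of 28 members were below 0 and the median was -0.25. Leaving out any other single mouse left 23 below 0, with medians from -0.48 to -0.31.

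Ugt2b35 (ENSMUSG00000035811, GRCm38.p6 chr5:87000860-87013274) encodes a UGT of the subfamily that handles steroids, bile acids and xenobiotics. Its levels were 114, 132 and 118 CPM in the WT livers and 57.8, 80.5, 82.7 and 69.4 CPM in the TET1 KO livers. The groups did not overlap, with the highest TET1 KO liver well below the lowest WT liver. The means were 121 ± 9.31 CPM (SD, n = 3) and 72.6 ± 11.5 CPM (SD, n = 4), a ratio of 0.598. On the log2 scale Ugt2b35 fell by 0.74 ± 0.15 (SE), with an edgeR adjusted p of 0.0357 and a DESeq2 adjusted p of 0.000849. The fall rests on small margins in edgeR, since the adjusted p lay between 0.0539 and 0.171 when any of WT replicates 1, 2 or 3 or TET1 KO replicates 2 or 3 was left out, while the log2 fold change stayed between -0.80 and -0.65 over all 7 single omissions. None of its transcripts' runs of 50 bases occurred in another gene's coding transcripts (GENCODE M1).

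Ugt2b5 and Ugt2b36 were the most abundant Ugt2b genes. Ugt2b5 had 663, 720.3 and 565 CPM in WT and 363, 466, 459 and 451 CPM in TET1 KO. Ugt2b36 had 627, 681 and 542 CPM in WT and 275, 488, 494 and 482 CPM in TET1 KO. In both genes the groups were apart, TET1 KO being lower, with replicate 1 lowest. The log2 fold changes were -0.58 for Ugt2b5 (SE 0.16, adjusted p = 0.0853) and -0.50 for Ugt2b36 (SE 0.21, adjusted p = 0.178), so neither was called in edgeR, whereas DESeq2 called Ugt2b5 (adjusted p = 0.00765). Ugt2b34 had 305, 378 and 352 CPM in WT and 275, 271, 289 and 296 CPM in TET1 KO, again without overlap, at a log2 fold change of -0.29 (adjusted p = 0.227). Ugt2b1, at 189.9 to 227 CPM in WT and 146 to 205 CPM in TET1 KO, overlapped between the groups.

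Ugt2b37 and Ugt2b38 shared the most transcript sequence with Ugt2b5, and both were much scarcer. Ugt2b37 had 0.496, 0.847 and 2.20 CPM in WT and 4.996, 0.977, 1.47 and 1.11 CPM in TET1 KO. Ugt2b38 had 11.7, 32.4 and 16.3 CPM in WT and 23.3, 8.10, 9.04 and 12.5 CPM in TET1 KO. In both genes TET1 KO replicate 1 was the highest of its group while it was the lowest for Ugt2b5, and the groups overlapped. The log2 fold change was 0.87 for Ugt2b37 (adjusted p = 0.414) and 0.06 without TET1 KO replicate 1, and it was -0.61 for Ugt2b38 (adjusted p = 0.349) and -0.08 without WT replicate 2. With another mouse left out the values reached 1.62 for Ugt2b37 and -1.02 for Ugt2b38. Of the runs of 50 bases in Ugt2b5 transcripts, 34.3% also occurred in Ugt2b38, so the reads of these 3 genes may have been divided or dropped in part. Summed over the 7 Ugt2b genes, the level was 1796 to 2171 CPM in WT and 1145 to 1539 CPM in TET1 KO, without overlap, at a ratio of means of 0.723.

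**Figure D3:**
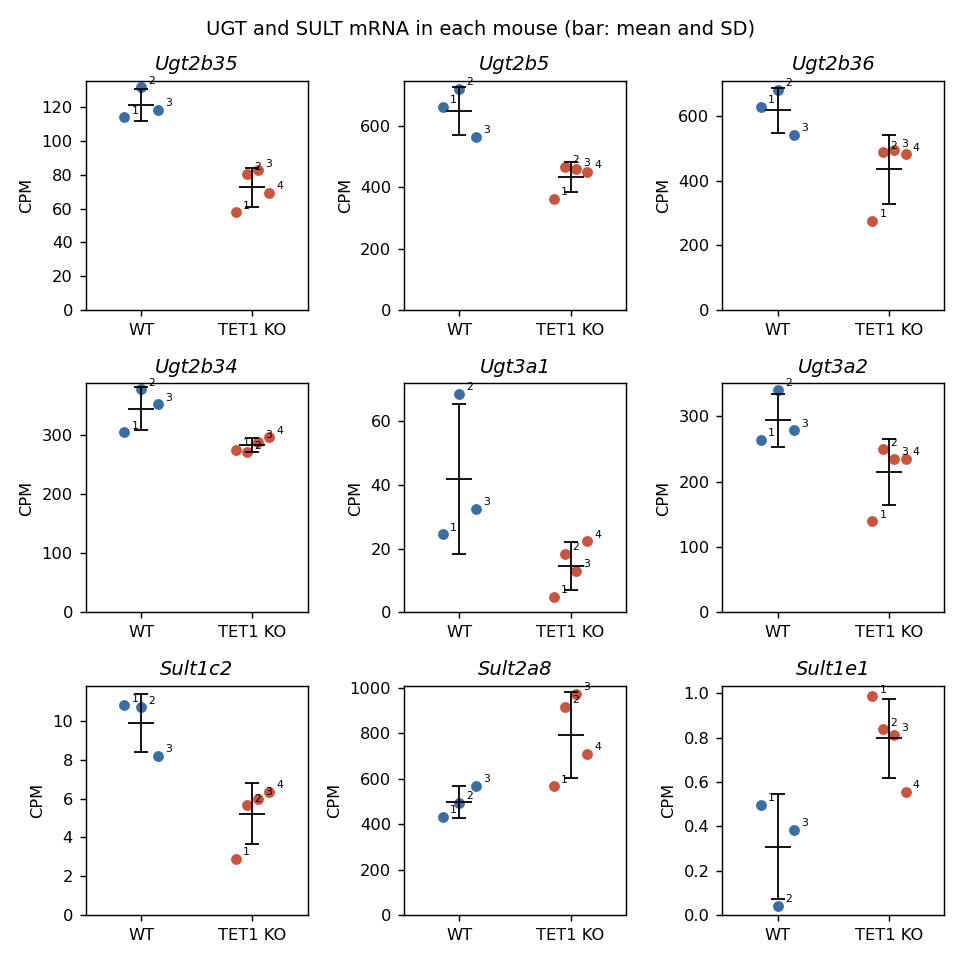
CPM of 9 members in each mouse (numbers are replicates), with mean and SD per group on axes that start at 0. The first 7 panels show every TET1 KO liver below every WT liver, Sult2a8 overlaps, and Sult1e1 shows every TET1 KO liver above at levels under 1 CPM.

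Ugt3a1 and Ugt3a2 encode UGTs that use other sugars than glucuronic acid, N-acetylglucosamine or glucose. Ugt3a1 had 24.4, 68.4 and 32.4 CPM in WT and 4.93, 18.4, 13.0 and 22.2 CPM in TET1 KO. All TET1 KO livers lay below the WT livers, but TET1 KO replicate 4 came close to WT replicate 1. The difference on the log2 scale was -1.51 ± 0.43 (SE, adjusted p = 0.0870), the lowest of the tested members, and it was -0.95 without WT replicate 2, the highest mouse. Ugt3a2 had 264, 340.4 and 279 CPM in WT and 139.5, 249.5, 236 and 235 CPM in TET1 KO. The groups did not overlap, although 3 of the 4 TET1 KO livers came close to WT replicate 1, and the log2 fold change was -0.45 (adjusted p = 0.196). Ugt2a3, which conjugates bile acids, had 179.9, 247 and 198 CPM in WT and 102, 182, 183 and 167 CPM in TET1 KO, and overlapped at a log2 fold change of -0.39 (adjusted p = 0.261; -0.23 without TET1 KO replicate 1 and -0.25 without WT replicate 2). Ugt8a, which makes the galactolipids of myelin, was near the detection limit, with 1, 2 and 0 counts in WT and 0, 1, 2 and 7 counts in TET1 KO.

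In the Ugt1a cluster the deposited counts appear to repeat the same reads. Ugt1a8 had the lowest count of the 9 genes, or shared the lowest, in all 7 libraries, and Ugt1a10 had the same count as Ugt1a8 in WT replicate 1 (1524) and in TET1 KO replicates 1 (602) and 3 (1159). Counts equal to the single read in genes that share their downstream exons were taken to mean that reads on those exons entered the count of every Ugt1a gene. This is an inference, since the counting settings are not given and the lowest count was tied only among Ugt1a8, Ugt1a10 and Ugt1a2. The lowest count was 1524, 1822 and 1115 in WT and 602, 836, 1159 and 1410 in TET1 KO, with a log2 fold change of -0.38 (adjusted p = 0.232). The sum of the 9 genes as deposited was 698 to 998 CPM in WT and 369 to 707 CPM in TET1 KO, and the groups overlapped. It was 2.62 to 5.12 times the sum in which the lowest count is taken once. That sum was 203, 381 and 207 CPM in WT and 72.2, 144, 137 and 185 CPM in TET1 KO. There the 4 TET1 KO livers were all below the 3 WT livers. Reads on exons that only some of the genes share would still be counted more than once in that sum. Ugt1a6a, Ugt1a6b and Ugt1a7c shared 1864 to 2863 exon bases with another gene, against 1311 to 1318 for the rest.

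The counts above this lowest count leave out what all 9 genes appear to repeat, although some may still be shared between neighbours. Their zero is set by the subtraction, so Ugt1a8 is at 0 by construction, any reads of Ugt1a8 itself are taken off every other gene, and fold changes of genes with few counts above the lowest depend on it. This step was chosen after the counts had been seen. Ugt1a1, the bilirubin UGT, had 1162, 4158 and 1304 such counts in WT and 130, 515, 535 and 1378 in TET1 KO. WT replicate 2 stood far above the rest and TET1 KO replicate 4 reached the WT range, so the groups overlapped after scaling. On the counts as deposited, the log2 difference of Ugt1a1 was -0.97 (adjusted p = 0.108), and between -1.19 and -0.58 with 1 mouse left out. Above the lowest count the difference was -1.59 ± 0.53 (SE, adjusted p = 0.115). It was -0.93 (adjusted p = 0.480) without WT replicate 2 and -2.09 (adjusted p = 0.0470), a call, without TET1 KO replicate 4. Of the counts above the lowest, Ugt1a1 held 45.1% to 58.0% in WT and 22.9% to 53.2% in TET1 KO.

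Ugt1a9, which conjugates phenols, had 51, 138 and 52 counts above the lowest in WT and 2, 4, 6 and 28 in TET1 KO. All TET1 KO livers lay below all WT livers, and 3 of them had fewer than 10 counts. The counts as deposited, most of them repeated, gave a log2 difference of -0.44 (adjusted p = 0.184). Above the lowest count it was -2.79 ± 0.54 (SE, adjusted p = 0.0314 in edgeR), a value that a few reads more or fewer in the subtracted count would move. The call was lost without WT replicate 2 or TET1 KO replicates 1, 2 or 3, with adjusted p from 0.0650 to 0.197, while the log2 fold change stayed between -3.94 and -2.30 over all single omissions.

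Ugt1a6b had 284, 950 and 376 counts above the lowest in WT and 41, 99, 120 and 279 in TET1 KO, and Ugt1a7c had 178, 538 and 206 in WT and 26, 63, 79 and 156 in TET1 KO. WT replicate 2 was highest and TET1 KO replicate 1 lowest in both, and once scaled to library size the groups did not overlap. On the counts as deposited, their log2 fold changes were -0.64 (adjusted p = 0.111) and -0.53 (adjusted p = 0.141). Above the lowest count they were -1.80 (adjusted p = 0.0646) and -1.72 (adjusted p = 0.0617). Without WT replicate 2 they were -1.27 and -1.21, and without TET1 KO replicate 4 both were called, at -2.26 (adjusted p = 0.0220) and -2.09 (adjusted p = 0.0263). DESeq2 called Ugt1a7c (adjusted p = 0.00155) and not Ugt1a6b (adjusted p = 0.0513). Ugt1a5 had 28, 138 and 28 such counts in WT and 11, 11, 16 and 30 in TET1 KO, at -1.67 (adjusted p = 0.0990), and at -0.64 (adjusted p = 0.483) without WT replicate 2, while DESeq2 called it (adjusted p = 0.0269). On the counts as deposited Ugt1a5 had -0.41 (adjusted p = 0.205). Ugt1a6a, a UGT for planar phenols, had 866, 1218 and 676 counts above the lowest in WT and 356, 534, 781 and 711 in TET1 KO, at -0.42 (adjusted p = 0.224). With 1 mouse left out this lay between -0.52 and -0.26, and the counts as deposited gave -0.39 (adjusted p = 0.222). Ugt1a2, Ugt1a10 and Ugt1a8 had at most 15 counts above the lowest in any library.

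**Figure D4:**
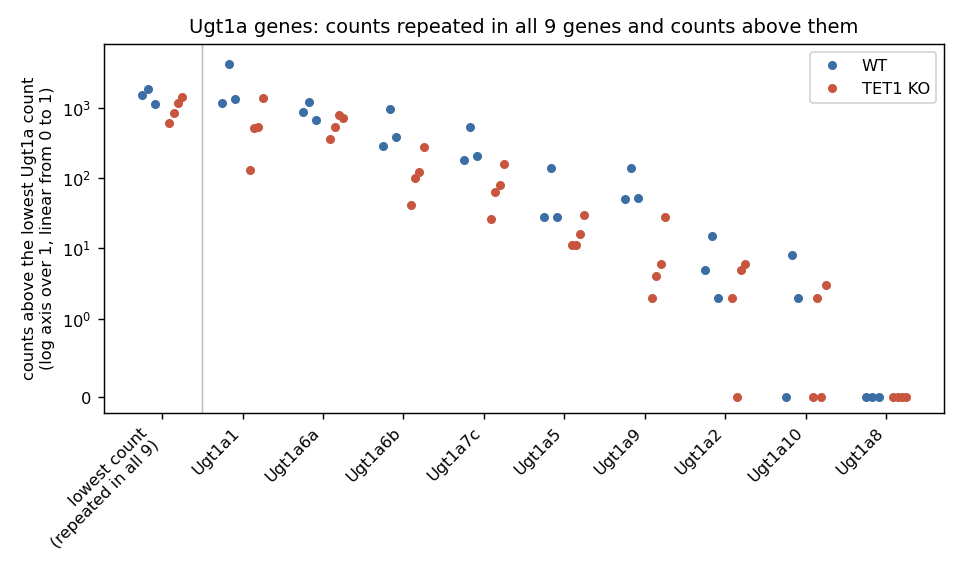
Counts of the Ugt1a genes in each mouse, split into the lowest count, which all 9 genes appear to repeat (left), and the counts of each gene above it (right), on a log axis over 1 and a linear one from 0 to 1, not scaled to library size. Ugt1a9 lies between 51 and 138 counts in WT and between 2 and 28 in TET1 KO, while Ugt1a8 is at 0 throughout by construction.

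Of the 8 tested SULT genes, 0 were called by edgeR, 3 had log2 fold changes above 0 and 5 below, with a median of -0.21. Sult2a8, a liver sulfotransferase of bile acids, was the most abundant SULT gene. It had 431, 493 and 569 CPM in WT and 567, 918, 976 and 711 CPM in TET1 KO. TET1 KO replicate 1 reached no further than WT replicate 3, and the other TET1 KO livers lay above all WT livers. The means were 498 ± 68.9 CPM (SD, n = 3) and 793 ± 189 CPM (SD, n = 4). The log2 difference was 0.67 ± 0.21 (SE). DESeq2 called it (adjusted p = 0.0220) and edgeR did not (adjusted p = 0.104). Sult2a7, the other tested Sult2a gene, had 3.42 to 5.67 CPM in WT and 3.40 to 4.30 CPM in TET1 KO.

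Sult1a1, the main phenol sulfotransferase, had 241, 231 and 197 CPM in WT and 179, 256, 243 and 358 CPM in TET1 KO, and overlapped at a log2 fold change of 0.21 (adjusted p = 0.551), which was 0.03 without TET1 KO replicate 4. Sult1d1, which sulfates catecholamines, had 132, 136 and 140.2 CPM in WT and 98.7, 108, 111 and 134 CPM in TET1 KO. Only TET1 KO replicate 4 reached the WT range, at a log2 fold change of -0.26 (adjusted p = 0.255). Sult1c2 had 10.8, 10.7 and 8.20 CPM in WT and 2.90, 5.65, 5.99 and 6.34 CPM in TET1 KO, without overlap. The log2 difference was -0.92 ± 0.25 (SE), called by DESeq2 (adjusted p = 0.0166) and not by edgeR (adjusted p = 0.0771). Sult1e1, the estrogen sulfotransferase, had 0.496, 0.0424 and 0.385 CPM in WT and 0.987, 0.838, 0.813 and 0.555 CPM in TET1 KO. It was the 1 member with every TET1 KO liver above every WT liver, at a log2 difference of 1.40 ± 0.55 (SE, adjusted p = 0.158) and at levels close to the detection limit. This was 0.82 without WT replicate 2 and 1.98 without WT replicate 1. Sult1b1, a thyroid hormone and phenol sulfotransferase, had 20.04, 24.2 and 17.9 CPM in WT and 9.68, 20.7, 23.5 and 19.2 CPM in TET1 KO, at -0.18 (adjusted p = 0.679). Sult5a1 had 5.01, 4.83 and 8.20 CPM in WT and 0.617, 3.35, 6.55 and 3.33 CPM in TET1 KO, at -0.77 (adjusted p = 0.345), with -0.43 without TET1 KO replicate 1, -0.49 without WT replicate 3 and -1.28 without TET1 KO replicate 3. Both genes overlapped between the groups and were lowest in TET1 KO replicate 1.

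The 21 untested members were 13 genes with 0 counts in all libraries and 8 genes with 1 to 9 counts in total. They included all 6 pseudogenes of the group. Sult2a1, a hydroxysteroid sulfotransferase known to be female-biased in mouse liver, had 6, 2 and 0 counts in WT and 0, 0, 1 and 0 in TET1 KO. Sult3a1, also female-biased, had 2, 5 and 0 counts in WT and 0 in all TET1 KO livers. Both stayed too low for a comparison at this depth. Sult2b1 and Sult4a1 had 2 counts each, all in TET1 KO replicate 2. Of the runs of 50 bases in Sult2a1 transcripts, 33.3% occurred in transcripts of other genes, mostly Sult2a2, so its reads too could be shared.

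Of 5 listed genes for the supply of UDP-glucuronic acid, the cofactor of UGTs, 1 was called lower in TET1 KO livers, where 0.932% of all tested genes were called lower. This list and those below were chosen with earlier results of these data known, so such counts describe the listed genes only. Ugdh, which oxidizes UDP-glucose to UDP-glucuronic acid, had 212, 194 and 142 CPM in WT and 71.4, 87.3, 84.8 and 84.7 CPM in TET1 KO. The groups lay far apart, and Ugdh fell by 1.16 on the log2 scale (SE 0.16, adjusted p = 0.00664), a call that held without each single mouse. Ugp2, which makes UDP-glucose, had 698, 768 and 442 CPM in WT and 317, 333, 384 and 376 CPM in TET1 KO, without overlap, at a log2 fold change of -0.85 (adjusted p = 0.0548). Uxs1, which turns UDP-glucuronic acid into UDP-xylose, had -0.62 (adjusted p = 0.132). Slc35d1 and Slc35b1, transporters of the endoplasmic reticulum, had 0.03 and 0.13.

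Of the 9 genes of PAPS supply and sulfate, 0 were called by edgeR. Papss1 and Papss2, the enzymes that make PAPS, had log2 fold changes of 0.92 (adjusted p = 0.0725) and 0.55 (adjusted p = 0.158). Papss1 had 4.79 to 7.05 CPM in WT and 7.46 to 14.9 CPM in TET1 KO, without overlap, while Papss2, at 79.0 to 114 and 85.7 to 164 CPM, overlapped. Bpnt1, which clears the spent cofactor, and Suox, which oxidizes sulfite to sulfate, had -0.85 (adjusted p = 0.0582) and -0.86 (adjusted p = 0.0830), both without overlap.

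Over the 69 listed genes of the pathway, 68 were tested, of which 1 was called higher and 5 were called lower in edgeR, against 0.593% and 0.932% of all tested genes. The log2 fold change was below 0 in 44 of the 68 and in 49% of all tested genes, with medians of -0.16 and 0.01. As the lists were chosen with earlier results of these data known, these counts describe the listed genes and are no test of the pathway. The gene called higher was Slco1a1, an uptake transporter of sulfated steroids and bile acids, with 45.5, 65.8 and 71.8 CPM in WT and 268, 192, 201 and 139.5 CPM in TET1 KO. It rose by 1.71 on the log2 scale (SE 0.23, adjusted p = 0.00641). Beside Ugdh, the genes called lower were Nqo1, a quinone reductase and target of Nfe2l2, with -1.31 (adjusted p = 0.0374), Cyp4a14, a target of Ppara, with -2.18 (adjusted p = 0.0374), Cyp3a11, a target of Nr1i2, with -1.31 (adjusted p = 0.0445), and Nat1, an N-acetyltransferase, with -1.45 (adjusted p = 0.0458). Cyp4a14 was -1.42 (adjusted p = 0.194) without WT replicate 2. Nat1 lay near the detection limit, at 1.64 to 1.99 CPM in WT and 0.419 to 0.787 CPM in TET1 KO. Only Slco1a1 and Ugdh kept their calls without each single mouse.

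**Figure D5:**
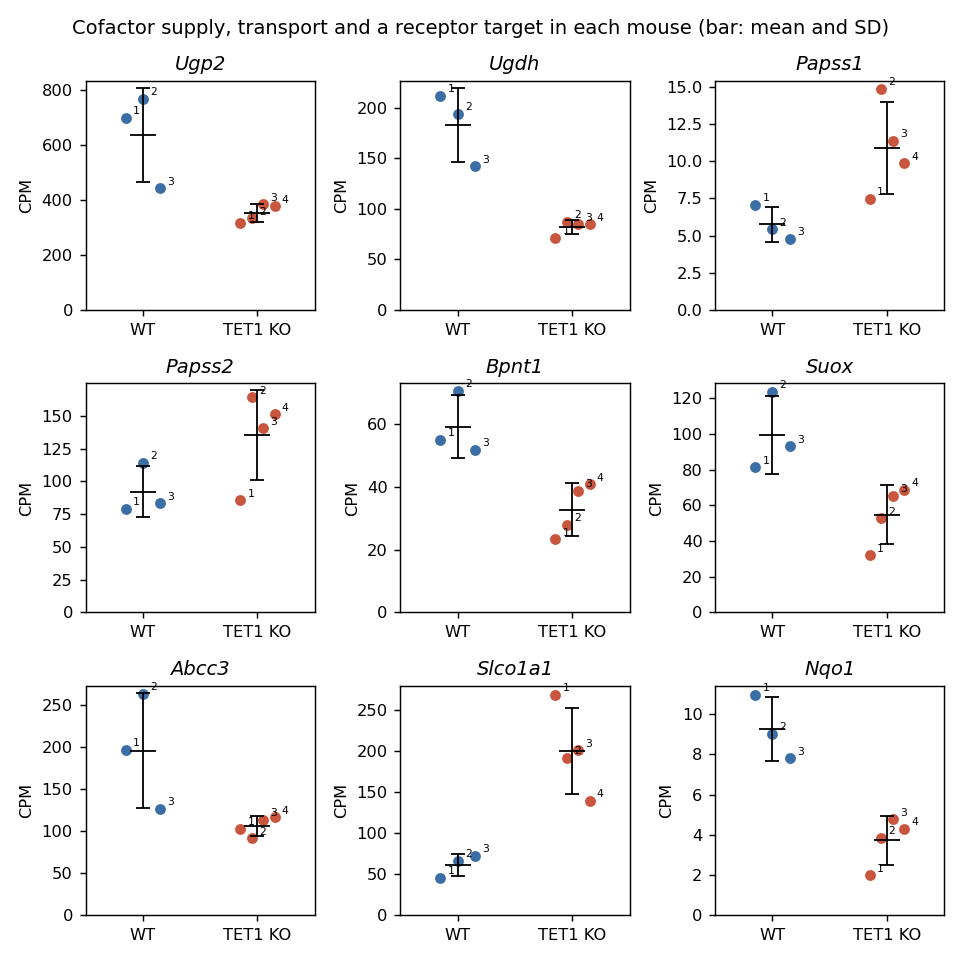
CPM of 9 genes of cofactor supply, sulfate, transport and receptor response in each mouse (numbers are replicates), with mean and SD per group on axes that start at 0. Ugdh is at 142 to 212 CPM in WT and 71.4 to 87.3 CPM in TET1 KO, and Slco1a1 at 45.5 to 71.8 and 139.5 to 268 CPM.

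The nuclear receptors and other factors known to drive these genes were measured at the mRNA level, where 0 of 13 were called by edgeR. Nr1i3, the constitutive androstane receptor, had 0.53 (adjusted p = 0.133) without overlap, while its target Cyp2b10 lay at or under 1.36 CPM. Nr1i2, the pregnane X receptor, had 0.17 (adjusted p = 0.584), and between 0.04 without TET1 KO replicate 1 and 0.30 without TET1 KO replicate 2. Ahr had -0.41 (adjusted p = 0.295), and -0.21 without WT replicate 2. Of its targets, Cyp1a2 had 0.62 (adjusted p = 0.167), and between 0.37 and 0.87 with 1 mouse left out. Cyp1a1 had -0.62 (adjusted p = 0.315), and Tiparp and Ahrr had -0.07 and -0.09 (adjusted p = 0.848 and 0.953). Cyp1a1 and Ahrr lay near the detection limit, at or under 1.39 and 0.349 CPM. Esr1 and Nfe2l2 had -0.98 (adjusted p = 0.0786) and -0.42 (adjusted p = 0.132). Gclc, another target of Nfe2l2, had -0.91 (adjusted p = 0.0548).

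Among 8 transporters of conjugates, Abcc3, which exports glucuronides to blood, had -0.89 (adjusted p = 0.0607) without overlap, and Abcc2, which exports them to bile, had -0.14 (adjusted p = 0.671). Of 5 tested enzymes and factors of deconjugation, 0 were called and 5 were below 0. Gusb, the lysosomal glucuronidase, had -0.48 (adjusted p = 0.190), and between -0.67 and -0.29 with 1 mouse left out. The sulfatases Arsb and Arsa had -0.96 (adjusted p = 0.0548) and -0.32 (adjusted p = 0.193), and DESeq2 called Arsb (adjusted p = 0.00398). Hs2st1 and Ndst1, sulfotransferases of the Golgi, had -0.57 (adjusted p = 0.138) and -0.77 (adjusted p = 0.140). Without WT replicate 2 these were -0.32 and -0.26, and without WT replicate 1 Ndst1 was called, at -1.08 (adjusted p = 0.0488). Beside Nat1, the other conjugating enzymes Hnmt, Nat2 and Inmt had -0.75 (adjusted p = 0.0628), -0.64 (adjusted p = 0.0893) and 0.49 (adjusted p = 0.198), and Inmt had 0.25 without WT replicate 3.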

How the data were processed

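Liver RNA of 3 WT and 4 TET1 KO mice was sequenced by the study, with genotype and replicate number read from the labels. The authors deposited raw read counts per Ensembl gene for each mouse, made with featureCounts 1.5.3 and not normalized. The submitters' processing notes also name Trimmomatic 0.36, GSNAP and GRCm38, while the annotation release and the counting settings are not given in the sources used here, so reads of overlapping genes and close paralogs are uncertain. The labels name both poly(A) selection and removal of ribosomal RNA for a stranded library.

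The tables were joined by Ensembl identifier, 5 repeated entries were left out, and 18553 genes with at least 10 counts in total were kept. In R 4.3.3, edgeR 4.0.16 (TMM, glmQLFit with legacy and robust both FALSE, glmQLFTest) compared the genotypes without covariates, with Benjamini-Hochberg adjustment across all 18553 genes. A gene was called at an adjusted p under 0.05, and the standard error (SE) is the fold change divided by the root of its F statistic. On simulated counts for this comparison edgeR recovered all 200 changed genes of 4-fold size with 7 false calls, and DESeq2 1.42.0, the alternative test, recovered 200 with 12. The changed genes were well-counted ones, and all genes were given the same dispersion. Smaller changes, such as that of Ugt2b35, were not simulated, so the recovery at those sizes is not known. CPM values are TMM-scaled. Totals of 15005277 to 22746138 counts set the precision, at most 3 counts per library were treated as the floor, and replicates measure the spread between single mice.

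Sequences and positions are from RefSeq (GRCm38.p6), matched by symbol for 44 of the 49 members, and exon lengths and shared runs of 50 bases are from GENCODE M1, found for 27 of the 28 tested members. Promoter windows were aligned globally. Members, lists and tests were chosen with earlier results of these data known. Values in every library are given for members called, for those with an unadjusted p under 0.05 and for the most abundant member of each subfamily. Further pathway genes are those called, those with an unadjusted p under 0.05, and Ugdh, Papss2, Ahr, Nr1i2, Nr1i3, Cyp1a2 and Cyp2b10. Ugt1a counts above the lowest Ugt1a count, the other members shown for contrast, and Cyp1a1, Tiparp and Ahrr beside Cyp1a2, were chosen after the values had been seen. The alternatives tried were DESeq2, RLE size factors, library size only, filterByExpr, no filter, robust dispersions, 10 or more counts per library, a replicate block, and each mouse left out in turn. The labels give no batch or date. Sts, on the list of deconjugation, was not analysed here, and 1 gene of the receptor list is not reported here. Figures were drawn with matplotlib in Python.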

Additional observations from a re-analysis of the deposited data

Results flagged for a closer look

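In 5 members TET1 KO replicate 1 lay apart from the other 3 TET1 KO livers, judged by its gap to the nearest of them as a share of the group's whole range. This share was 0.926 for Ugt1a6a, 0.944 for Ugt2b36, 0.877 for Ugt2b37, 0.855 for Ugt2b5 and 0.869 for Ugt3a2. Ugt1a6a, Ugt2b36, Ugt2b5 and Ugt3a2 were lowest in this mouse and Ugt2b37 was highest. Chance flags about 1 in 20 groups, and the 5 flags share 1 mouse. Without it the log2 fold changes were -0.24 for Ugt1a6a, -0.34 for Ugt2b36, 0.06 for Ugt2b37, -0.50 for Ugt2b5 and -0.29 for Ugt3a2. The WT group of 3 mice was not examined this way.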

How the results depend on the processing

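Of the 28 tested members, 27 kept their direction under every alternative that gave a value. Ugt8a had a value under 12 of the 17 alternatives, and Sult1e1 and Ugt1a8 under 16. The exception was Sult1b1, at -0.18 in all mice and between -0.32 and 0.0249 with 1 mouse left out, above 0 without TET1 KO replicate 1. Cyp2b10, near the detection limit, was -0.75 in all mice, lay between -1.22 and 0.000598 with 1 mouse left out, and was above 0 without WT replicate 2. Members called lower numbered 1 in edgeR and 4 in DESeq2 (Sult1c2, Ugt1a1, Ugt2b5, Ugt2b35), which also called 1 higher (Sult2a8), 4 with the replicate block in the samples numbered 1 to 3 (Ugt1a1, Ugt1a6b, Ugt2b35, Ugt3a1), 2 with Ugt1a counts above the lowest Ugt1a gene (Ugt1a9, Ugt2b35), and 0 to 1 when 1 mouse was left out. Over all tested genes, 110 higher and 173 lower calls became 635 and 710 in DESeq2, 245 and 347 without a filter on low counts, 517 and 548 with the block and 336 and 406 for the same samples without it, and 17 to 336 and 24 to 406 with 1 mouse left out, lowest without WT replicate 2 and highest without TET1 KO replicate 4. DESeq2 called 7.25% of all tested genes. Other pathway genes called higher and lower, 1 and 5, became 2 and 14 in DESeq2, 2 and 12 without a filter, and 1 and 1 to 8 with 1 mouse left out, and 9 were lower with library size only, 8 with robust dispersions, and 8 with the block or without it in samples 1 to 3. The cause of these shifts was not tested.

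Deviations from the group means correlated at 0.23, -0.10 and -0.15 between samples of the same number, so the replicate numbers were not taken as pairs. Library size only shifted the median log2 fold change of all genes by -0.07. Depth limits Sult1e1, Ugt2b37, Ugt8a and the counts of Ugt1a9 above the lowest, and read sharing limits the Ugt1a genes, Ugt2b5, Ugt2b37 and Ugt2b38.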
